A study of Mus musculus with 42 samples.

Results

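Nuclear-encoded respiratory chain genes were taken as every gene of the count table whose mouse symbol begins as a subunit of complex I (Nduf followed by a, b, c, s or v and a digit), complex II (Sdha to Sdhd), complex III (Uqcr), complex IV (Cox4 to Cox8) or complex V (Atp5), with pseudogenes left out. This gave 84 of the 53465 genes, with 35 in complex I, 4 in complex II, 8 in complex III, 20 in complex IV and 17 in complex V. Ndufa4 and Ndufa4l2 were counted with complex IV. A further 12 entries were left out as pseudogenes by their annotation or their symbol. Ndufb1-ps was left out by its symbol alone, since it was annotated as a noncoding RNA. It held 40495 counts over the 42 libraries, against at most 820 in any other entry left out.

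RNA was measured by sequencing in sorted mouse thymic epithelial cells, the stromal cells on which T cells mature, in a study of deletion of Ski, a transcriptional cofactor, in these cells. The groups were KO, Ski flox Control and Control, each in 3 subsets: UEA-positive, Ly51-low medullary cells (mTEC) with low or high surface MHCII, and UEA-negative, Ly51-positive cortical cells (cTEC), all sorted as Epcam-positive and CD45-negative. The labels give no age, no Cre driver and no allele beyond these names, and the Ski flox Control animals are not described further. The 40 libraries used, each from 200 sorted cells, held 3217251 to 7068077 counts: 7 KO libraries in each subset, 2 Ski flox Control libraries in each subset, and 4 MHCII-low mTEC, 4 MHCII-high mTEC and 5 cTEC Control libraries. Since no label says which animals a library came from, each p-value rests on the variation among libraries, part of which may be technical.

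The respiratory chain passes electrons from NADH through complex I, or from succinate through complex II, to complex III and then to oxygen at complex IV, and complex V uses the resulting proton gradient to make ATP. Most subunits are encoded in the nucleus and imported, while a core set is encoded by mitochondrial DNA. Several subunits of complex IV have a widely expressed form and a form restricted to heart and skeletal muscle, lung or testis, and mTEC are known for low, scattered transcription of genes restricted to other tissues.

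Ski itself averaged 6.504 ± 5.94 CPM (counts scaled to library size) in KO against 24.6 ± 15.1 CPM in Control MHCII-low mTEC (SD, n = 7 and 4), 6.14 ± 6.47 against 13.3 ± 6.55 CPM in MHCII-high mTEC (n = 7 and 4), and 16.3 ± 16.4 against 16.7 ± 8.95 CPM in cTEC (n = 7 and 5). Exact two-sided permutation p-values on the log2(CPM + 1) scale, adjusted over the 3 subsets, were 0.0818, 0.127 and 0.472. The cTEC markers were lower in KO mTEC than in KO cTEC, with 8 of 8 below 0 on the log2 scale and 5 called lower in each mTEC subset. The shares of all genes called lower were 0.49% in MHCII-low and 1.82% in MHCII-high mTEC. Of the MHCII-low mTEC markers, 6 of 6 tested were above 0 and 3 were called higher in MHCII-low KO mTEC over KO cTEC. In MHCII-high KO mTEC over KO cTEC, 5 of these 6 were above 0 and 4 were called higher, so they did not set the mTEC subsets apart. Of 7 MHCII-high mTEC markers, 2 were called higher in MHCII-high and 0 in MHCII-low KO mTEC over KO cTEC. The shares of all genes called higher were 5.19% in MHCII-low and 12.9% in MHCII-high mTEC. In the Control libraries the 8 cTEC markers were also all below 0 in both mTEC subsets, with none called in MHCII-low and 2 in MHCII-high mTEC. The shares of all genes called lower there were 0.0694% and 0.0434%.

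Libraries that stand apart touch several results. The library of cTEC KO replicate 3 held transcripts of heart muscle: Myh6 (cardiac myosin heavy chain) at 1756 CPM, Mb (myoglobin) at 1367 CPM and Actc1 (cardiac actin) at 1194 CPM, each at 0 in the other 6 KO cTEC libraries. These genes were chosen after their values were seen. A sum over 7 such genes was 4659 CPM in that library and at most 355.8 CPM in any other of the 40. Counts of called genes that use KO cTEC are therefore given with and without it for the respiratory chain genes, the assembly factors and the neighbouring pathways. The 2 Ski flox Control libraries of MHCII-low mTEC also stood apart, with summed epithelial markers (Epcam, Foxn1, Krt8 and Krt18) at 777 to 1181 CPM, against 2246 to 8937 CPM in KO and 3534 to 5405 CPM in Control MHCII-low mTEC. In cTEC KO replicate 5 several cTEC markers were at their lowest of the group. Psmb11 was at 6.49, Prss16 at 3.90, Ctsl at 90.4, Cxcl12 at 44.2 and Ccl25 at 33.5 CPM there. Their group medians were 607, 1009, 3297, 546 and 1808 CPM. Ly75 and Dll4 were not at their lowest in it. This library was left out only in the fits that left out each library in turn.

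The respiratory chain genes were steadily expressed in every subset. Their summed level averaged 22737 ± 2057 CPM in KO, 23963 ± 1121 CPM in Ski flox Control and 23540 ± 3160 CPM in Control MHCII-low mTEC (SD, n = 7, 2 and 4). In MHCII-high mTEC the sum averaged 23150 ± 1765, 25660.4 ± 3192 and 22136 ± 3164 CPM in the same order of genotypes (n = 7, 2 and 4), and in cTEC 19338 ± 2201, 21186 ± 3155 and 17738 ± 2347 CPM (n = 7, 2 and 5). Without cTEC KO replicate 3 the KO cTEC sum averaged 18617 ± 1198 CPM (n = 6). The mean was higher in both mTEC subsets than in cTEC of the same genotype, but the libraries overlapped, with ranges of 21030 to 26024 CPM in KO MHCII-low mTEC, 21338 to 26249.9 CPM in KO MHCII-high mTEC and 16673 to 23669 CPM in KO cTEC. The overlap in KO came from cTEC KO replicate 3 alone. Without it KO cTEC reached at most 19541 CPM, below every KO mTEC library.

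**Figure D1:**
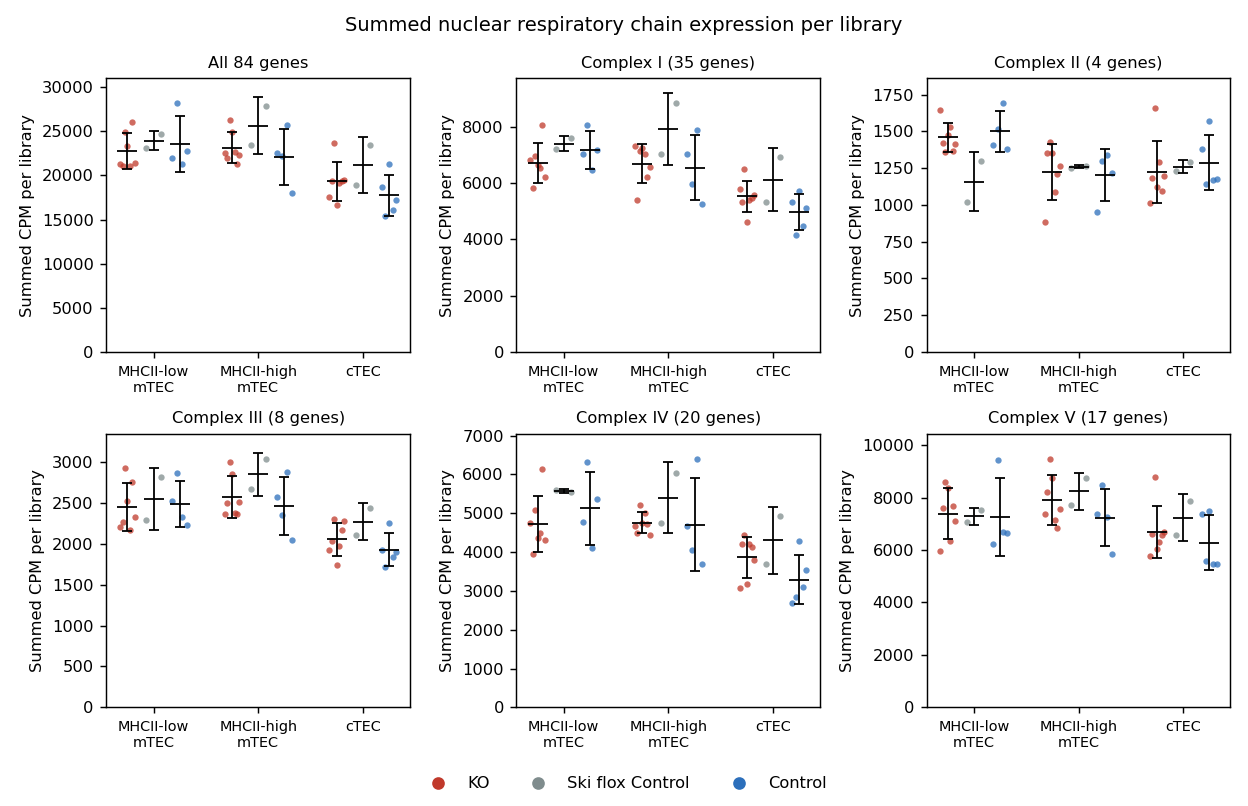
Summed CPM per library (vertical axis) of all 84 respiratory chain genes and of each complex, by subset and genotype; points are libraries, bars are mean and SD. KO MHCII-low mTEC averaged 22737 CPM over all genes and KO MHCII-high mTEC 23150 CPM, against 19338 CPM in KO cTEC.

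Levels were compared between genes as CPM per kilobase of transcript, averaged over the 9 group means. Transcript length was the median over the transcripts that the annotation marks as principal, and the levels depend on that choice. In complex I the highest was Ndufa1, a small membrane-arm subunit, at 613 CPM per kilobase, and the lowest Ndufb2 at 8.29. In complex II, Sdhb (the iron-sulfur subunit) stood at 336 CPM per kilobase, Sdhd (a membrane anchor) at 286, Sdha (the flavoprotein that oxidises succinate) at 145 and Sdhc (the other anchor) at 41.4. In complex III the highest was Uqcrh, the hinge protein, at 649 CPM per kilobase and the lowest Uqcrc2 at 134. In complex V the highest was Atp5b, the catalytic beta subunit, at 1033 CPM per kilobase and the lowest Atp5s at 21.03.

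Complex IV held the highest level of all 84 genes. Cox6a1 stood at 1086 CPM per kilobase, Cox8a at 1022, Cox4i1 at 931 and Cox6b1 at 896, each the widely expressed form of its subunit. Cox6c followed at 762 CPM per kilobase, Ndufa4 at 672, Cox7a2 at 476, Cox7b at 275 and Cox7a2l, which takes part in joining complexes III and IV, at 129. Among the genes for the ring subunit c of complex V, Atp5g3 stood at 792 CPM per kilobase, Atp5g1 at 68.4 and Atp5g2 at 59.6. Their lengths were set at 718.5, 2675.5 and 586 bases, and before division by length they averaged 569, 183 and 34.9 CPM. Atp5g2, Ndufb2, Ndufb4 (41.5) and Atp5l (24.0) are genes whose reads may be shared with pseudogene copies. Atp5o, Ndufb6 and Ndufa13 overlap other genes over 47.9%, 39.0% and 30.0% of their exon bases, and the kit does not mark strand, so their counts are uncertain.

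Apart from the restricted forms, the more abundant genes varied little between libraries of the same group. Over the 68 genes averaging at least 100 CPM, the median coefficient of variation within groups was 20.4% (range 14.2% to 35.3%), against a median of 35.4% over 2206 other genes at that level. Of the 76 genes outside the restricted forms, 75 had counts in every library. Over these 76 the coefficient of variation reached 68.3% (Atp5l), with Atp5s at 50.5%, Ndufs1 at 43.0% and Ndufb2 at 42.9%, all averaging under 100 CPM.

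The 8 restricted forms stood at 18.0 CPM per kilobase or lower. Cox6b2, a testis form, averaged 18.0 CPM per kilobase, Cox8b 15.97, Cox7a1 15.9 and Cox6a2 10.1, the last 3 known from heart and skeletal muscle. Cox4i2, known from lung, averaged 3.14 CPM per kilobase, the testis form Cox7b2 2.18 and Ndufa4l2, known as a target of hypoxia signalling, 0.597. Cox8c had no count in any of the 40 libraries and was the only one of the 84 genes not tested. With 0 counts seen, up to 3 counts over the pooled libraries remain possible by counting error alone.

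Cox7a1, the heart and skeletal muscle form of subunit 7a, was at 176.5 CPM in cTEC KO replicate 3 and at 0 to 4.899 CPM in the other 6 KO cTEC libraries. Across the other 39 libraries it reached at most 11.6 CPM, in MHCII-low mTEC KO replicate 3. Cox6a2 was at 91.7 CPM in cTEC KO replicate 3 and at most 33.9 CPM elsewhere, in MHCII-low mTEC KO replicate 7. Cox8b was at 51.8 CPM in the same cTEC library, close to its value of 50.001 CPM in MHCII-high mTEC Control replicate 3. The 3 muscle forms were thus all high in the library that held heart muscle transcripts, and Cox8b alone was as high in an mTEC library.

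Cox7b2 had counts in 4 of the 40 libraries. It was at 61.0 CPM in MHCII-high mTEC KO replicate 1, at 6.51 and 0.954 CPM in MHCII-low mTEC Control replicates 5 and 4, and at 0.231 CPM in cTEC Control replicate 4. Cox4i2 was at 0, 4.65 and 27.0 CPM (lowest, median and highest) in KO MHCII-high mTEC, against 0 in 6 of 7 KO MHCII-low mTEC libraries and 0.872 CPM in the remaining library. Such values rest on few libraries, and the plot of restricted forms shows them as isolated dark squares.

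**Figure D2:**
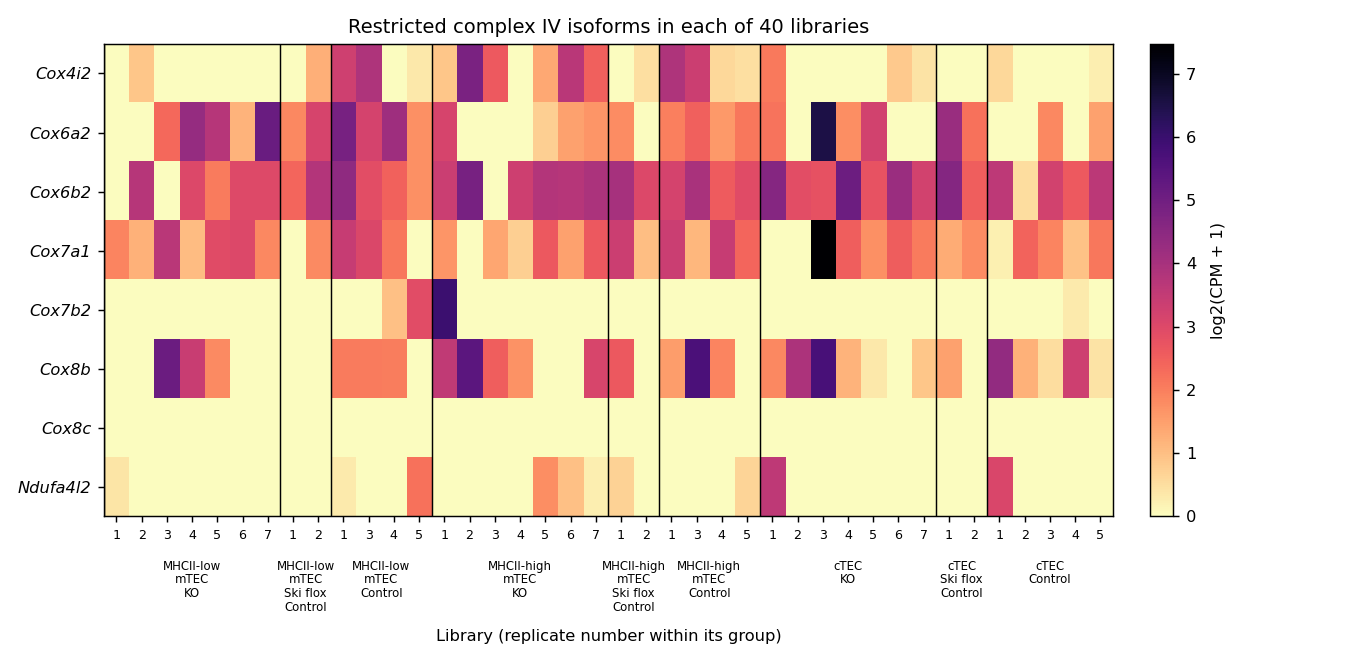
Level of the 8 restricted complex IV forms (rows) in each of the 40 libraries (columns, grouped by subset and genotype), as log2(CPM + 1) by colour. Cox7a1 (176.5 CPM), Cox6a2 (91.7 CPM) and Cox8b (51.8 CPM) are darkest in cTEC KO replicate 3, and Cox7b2 (61.0 CPM) in MHCII-high mTEC KO replicate 1.

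The promoters of 66 of the 84 genes were found in RefSeq (GRCm38.p6), each as 250 bases before to 50 after the start. They are shown because many respiratory chain genes share binding motifs of NRF1, of ETS factors such as GABP (also called NRF2) and of YY1. Any link of these motifs to the differences between subsets was not tested. On either strand, 17 of 66 (25.8%) held the NRF1 motif (GCGCA, any base, then GCGC), against 5.19% of 27025 genes with a promoter entry. The ETS motif CCGGAAG was in 16 (24.2%, against 9.93%) and the YY1 motif AAGATGGC in 9 (13.6%, against 3.19%), and 36 (54.5%, against 16.4%) held at least 1 of the 3. The 250 bases before the start are printed 5′ to 3′ on the gene's strand, with motif matches in capitals. They are given for 3 genes called in MHCII-low mTEC over cTEC, picked because they hold a match. Ndufc2, called in all 4 comparisons of mTEC with cTEC, and the muscle form Cox7a1 are also printed. Cox8a (called in Control), Cox6b1 and Ndufs7 (called in KO) hold a match and are not printed. Cox7a2, Cox6c and Ndufb3, called in Control, were not among the genes found with a match.
Cox6a1 (chr5:115348959-115349208, minus strand): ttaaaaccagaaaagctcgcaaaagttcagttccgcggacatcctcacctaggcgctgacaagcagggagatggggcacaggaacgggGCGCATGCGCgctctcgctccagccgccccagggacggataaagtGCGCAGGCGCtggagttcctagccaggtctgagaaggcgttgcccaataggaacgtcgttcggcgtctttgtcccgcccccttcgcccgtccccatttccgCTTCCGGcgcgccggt
Ndufs6 (chr13:73328483-73328732, minus strand): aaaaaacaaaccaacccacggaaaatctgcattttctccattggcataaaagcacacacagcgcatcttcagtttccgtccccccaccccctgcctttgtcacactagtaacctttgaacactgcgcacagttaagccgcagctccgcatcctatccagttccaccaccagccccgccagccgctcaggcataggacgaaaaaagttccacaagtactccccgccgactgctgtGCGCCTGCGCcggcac
Uqcr11 (chr10:80406822-80407071, minus strand): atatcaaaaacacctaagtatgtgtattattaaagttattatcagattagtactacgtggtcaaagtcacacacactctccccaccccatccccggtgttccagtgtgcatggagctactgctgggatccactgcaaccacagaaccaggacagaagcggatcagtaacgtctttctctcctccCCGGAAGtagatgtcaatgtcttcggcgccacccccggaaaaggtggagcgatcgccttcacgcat
Ndufc2 (chr7:97399753-97400002, plus strand): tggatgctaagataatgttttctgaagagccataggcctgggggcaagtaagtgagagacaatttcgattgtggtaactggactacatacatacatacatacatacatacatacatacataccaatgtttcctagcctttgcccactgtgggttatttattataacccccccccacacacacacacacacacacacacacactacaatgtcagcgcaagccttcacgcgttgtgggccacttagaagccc
Cox7a1 (chr7:30183921-30184170, plus strand): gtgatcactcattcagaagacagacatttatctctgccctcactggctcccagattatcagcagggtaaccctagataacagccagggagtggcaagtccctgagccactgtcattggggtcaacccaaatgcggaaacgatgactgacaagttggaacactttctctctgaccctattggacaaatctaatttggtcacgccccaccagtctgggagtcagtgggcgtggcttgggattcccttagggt

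The Cox6a1 window held NRF1 matches and, nearest the start, an ETS match on the other strand. Ndufs6 held an NRF1 match, and its YY1 match lies past the start, outside the printed bases. Uqcr11 held an ETS match. The windows of Ndufc2 and Cox7a1 held none of the 3 motifs, which says only that these letters are absent from them. They held 8 and 7 CpG dinucleotides over the 300-base window, against a median of 19 over 71 promoter entries of the respiratory chain genes and 7 over all 32851 entries.

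MHCII-low mTEC were compared with cTEC within each genotype. Among Control libraries (n = 4 and 5), 8 of the 83 tested genes were called higher and none lower by edgeR's quasi-likelihood test at a Benjamini-Hochberg adjusted p under 0.05, where 0.703% of all 23040 genes were called higher and 0.0694% lower. They were Cox7a2, Cox8a, Cox6c and Cox6a1 of complex IV, Ndufs6, Ndufb3 and Ndufc2 of complex I, and Uqcr11 of complex III. Of the 83 genes, 72 had a log2 fold change above 0 (54% of all genes did), with a median of 0.55 against 0.14 over all genes tested, and 43 reached an unadjusted p under 0.05 upward and none downward (14.5% and 3.42% of all genes did). In 24 of the 83, every MHCII-low mTEC Control library was above every cTEC Control library (5.08% of all genes).

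Complex I had a median log2 fold change of 0.59 in this comparison, with 22 of 35 genes at an unadjusted p under 0.05. The median was 0.63 in complex III (5 of 8 genes), 0.56 in complex IV (8 of 19) and 0.46 in complex V (8 of 17, none called). Complex II had a median of 0.24 and none of its 4 genes at an unadjusted p under 0.05. Sdha had a log2 fold change of 0.26 (SE 0.27) and Sdhc of 0.59 (SE 0.32).

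Cox7a2, the widely expressed form of subunit 7a, was at 369.5, 443, 300.4 and 459 CPM in MHCII-low mTEC Control and at 185, 158, 287, 159 and 222.5 CPM in cTEC Control. Its lowest mTEC value was above its highest cTEC value, and the log2 fold change was 0.96 (SE 0.21, adjusted p = 0.0193 by edgeR's quasi-likelihood test with Benjamini-Hochberg adjustment). Cox8a, the widely expressed form of subunit 8, was at 727, 872, 560.5 and 684 CPM in MHCII-low mTEC Control and at 352, 352, 531, 370.3 and 403 CPM in cTEC Control. These groups did not overlap either, and cTEC replicate 3 stood above the other cTEC libraries. The log2 fold change of Cox8a was 0.82 (SE 0.19, edgeR adjusted p = 0.0263).

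Ndufs6, an accessory subunit of complex I that binds zinc, was at 263, 263, 180.4 and 231 CPM in MHCII-low mTEC Control and at 125, 120.1, 134, 105 and 120.2 CPM in cTEC Control. All cTEC values were below the mTEC values, and the log2 fold change was 0.96 (SE 0.22, edgeR adjusted p = 0.0279). Uqcr11, a small subunit of complex III (ENSMUSG00000020163), was at 403, 338, 312 and 277 CPM in MHCII-low mTEC Control and at 211, 148, 201, 162 and 150.4 CPM in cTEC Control, without overlap. Its log2 fold change was 0.93 (SE 0.23, edgeR adjusted p = 0.0455). The other called genes had log2 fold changes of 0.86 (Cox6c), 1.03 (Ndufb3) and 0.85 (Cox6a1), with edgeR adjusted p from 0.0299 to 0.0451.

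The count of 8 rested on single libraries. It was 0 without cTEC Control replicate 2 or replicate 4, 1 without MHCII-low mTEC Control replicate 1 or 5, 2 without MHCII-low mTEC Control replicate 3 and 4 without cTEC Control replicate 5. It was 35 with DESeq2 and 20 with limma voom, and 0 where the compared groups alone were fitted, which also left 13546 genes and 80 of the 83 in the test. The shares of all genes called in these fits are not given here, so these counts cannot be set against other genes. At an unadjusted p under 0.05, DESeq2 had 51 of 83 higher (10.5% of all genes) and limma voom 46 (14.7%). The compared groups alone had 36 of 80 higher (8.5% of all genes). With limma voom the median over the 83 genes was 0.55 and that over all genes 0.50, so that the gap to other genes depended on the tool.

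**Figure D3:**
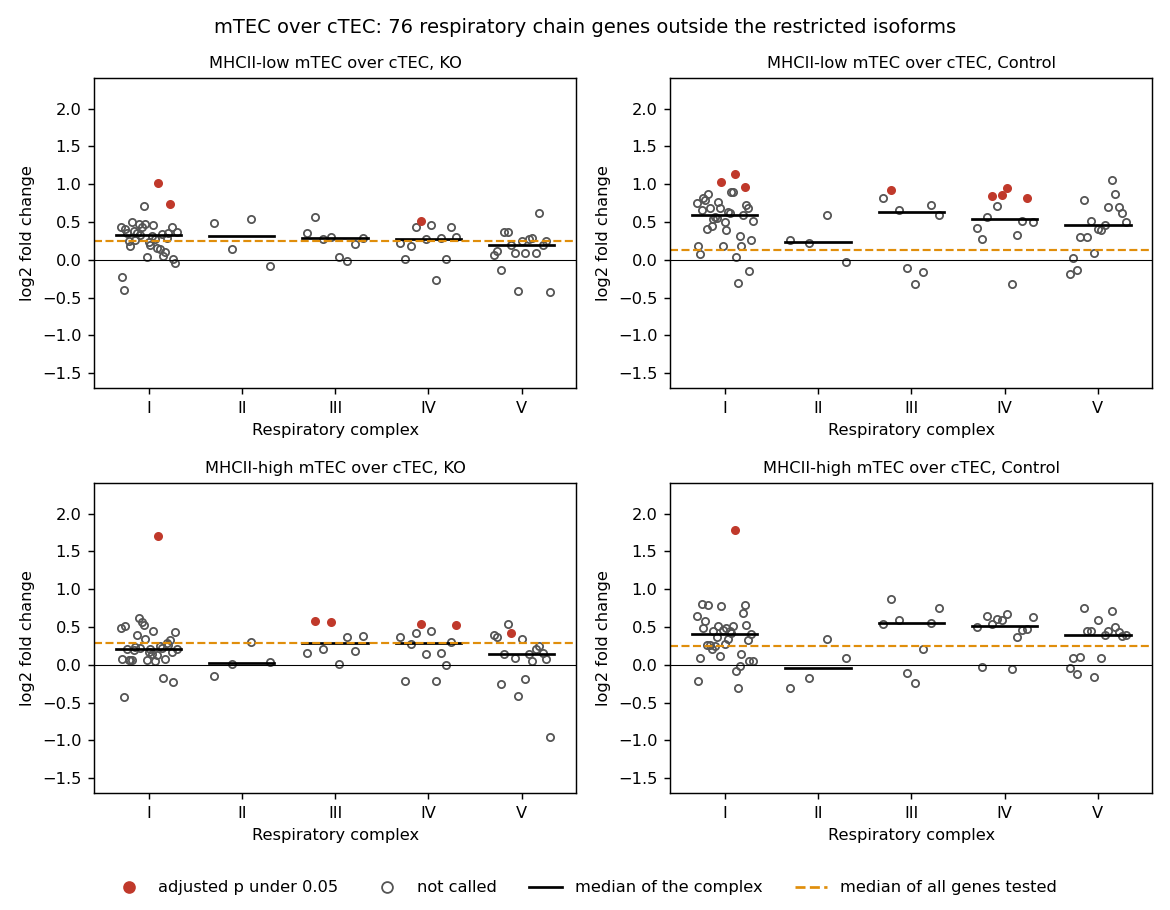
Log2 fold change (vertical axis) of the 76 genes outside the restricted forms, by complex, for MHCII-low mTEC (top) and MHCII-high mTEC (bottom) over cTEC in KO (left) and Control (right); filled points were called, black bars are medians of the points and the dashed line is the median of all genes. The complex medians lie furthest above the dashed line in Control MHCII-low mTEC, where the line is at 0.14, and Ndufc2 is the highest point in both lower panels (1.70 and 1.78).

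In KO libraries the same comparison gave 3 genes called higher and none lower, namely Ndufc2, Ndufs7 and Cox6b1, where 5.19% of all genes were called higher and 0.49% lower. The median log2 fold change of the 83 genes was 0.24, against 0.25 over all genes, and 67 were above 0 (58.1% of all genes). At an unadjusted p under 0.05, 20 were higher (21.1% of all genes) and 1 lower (4.99%). The median and the called share were close to those of all genes, while more genes were above 0. The gap between the medians depended on the setting. Among genes passing a filter of 10 CPM in 5 libraries, it was 0.31 against 0.17 over all genes. With the covariate for detected genes it was 0.31 against 0.06, and with limma voom 0.29 against 0.34. Without cTEC KO replicate 3, Ndufc2 and Cox6b1 were called, 72 of 83 were above 0 and the median was 0.30, against 0.24 over all genes. No respiratory chain gene had all 7 KO MHCII-low mTEC libraries above all 7 KO cTEC libraries (0.569% of all genes did).

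Ndufs7, the core complex I subunit that carries the iron-sulfur cluster next to ubiquinone, was at 203, 275 and 388 CPM (lowest, median and highest) in KO MHCII-low mTEC and at 123, 163 and 221 CPM in KO cTEC. Of the 7 mTEC libraries, 6 were above every cTEC library, and the log2 fold change was 0.74 (SE 0.21, edgeR adjusted p = 0.0356). Without cTEC KO replicate 3 it was no longer called. Leaving out single libraries gave 1 to 6 called genes, with 1 without cTEC KO replicate 2 or 4 or MHCII-low mTEC KO replicate 1 or 4, and 6 without MHCII-low mTEC KO replicate 7.

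Cox6b1 (ENSMUSG00000036751), a subunit on the intermembrane face of complex IV, was at 500.3, 592 and 686 CPM in KO MHCII-low mTEC, at 532, 639.7 and 699.6 CPM in KO MHCII-high mTEC and at 309.6, 443 and 502 CPM in KO cTEC. All 7 MHCII-high libraries were above all 7 cTEC libraries, and 6 of 7 MHCII-low libraries were. The log2 fold changes were 0.51 (SE 0.15, edgeR adjusted p = 0.0425) and 0.54 (SE 0.15, edgeR adjusted p = 0.0202), against the same cTEC libraries. In Control it had 0.72 (SE 0.19) in MHCII-low and 0.61 (SE 0.19) in MHCII-high mTEC over cTEC, neither called (edgeR adjusted p = 0.0598 and 0.0885).

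In MHCII-high mTEC over cTEC, 7 genes were called higher and none lower in KO libraries, where 12.9% of all genes were called higher and 1.82% lower. They were Ndufc2, Cox6b1, Ndufa4, Uqcr11, Uqcrc1, Atp5f1 and Cox7b2. The median of the 83 genes was 0.21, against 0.28 over all genes, with 68 above 0 (57.6% of all genes). At an unadjusted p under 0.05, 22 were higher (26.1% of all genes) and 2 lower (6.57%). In 4 genes every KO MHCII-high library was above every KO cTEC library (2.46% of all genes). The called share was thus below that of all genes. Here too the gap between the medians depended on the setting. Among genes passing a filter of 10 CPM in 5 libraries, it was 0.21 against 0.04 over all genes. With the covariate for detected genes it was 0.27 against 0.02, and with limma voom 0.23 against 0.41. Without cTEC KO replicate 3, 3 genes were called (Ndufc2, Cox6b1 and Ndufb8), with a median of 0.24. The count was also 3 without cTEC KO replicate 2 or 4 or MHCII-high mTEC KO replicate 1, 4 without cTEC KO replicate 6, and 11 without MHCII-high mTEC KO replicate 6.

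Ndufa4, once counted with complex I and now known as a subunit of complex IV, was at 352, 410.1 and 486 CPM in KO MHCII-high mTEC and at 218, 286 and 352 CPM in KO cTEC. Of the 7 mTEC libraries, 6 were above every cTEC library, for a log2 difference of 0.53 (SE 0.15, edgeR adjusted p = 0.0244). Uqcrc1, a core protein of complex III, had 0.56 (SE 0.18, edgeR adjusted p = 0.0384) in KO and −0.11 (SE 0.23) in Control. Atp5f1, subunit b of the peripheral stalk of complex V, had 0.43 (SE 0.15, edgeR adjusted p = 0.046), and Uqcr11 0.59 (SE 0.19, edgeR adjusted p = 0.0345). Cox7b2 passed through MHCII-high mTEC KO replicate 1 alone (61.0 CPM, and 0 in the other 13 libraries compared), so no fold is given.

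Among Control libraries, Ndufc2 alone was called higher in MHCII-high mTEC over cTEC and none lower (1.07% and 0.0434% of all genes were). The median of the 83 genes was 0.44, against 0.25 over all genes, and 68 were above 0 (57.2% of all genes). At an unadjusted p under 0.05, 32 were higher and none lower (18.3% and 2.9% of all genes). Every MHCII-high library was above every cTEC library in 6 genes (6.8% of all genes). Uqcr11 had 0.87 (SE 0.23, edgeR adjusted p = 0.0524) and Ndufs6 0.79 (SE 0.22, edgeR adjusted p = 0.0579), neither called. Without MHCII-high mTEC Control replicate 5 the count was 5, and without cTEC Control replicate 1 or 3 it was 2. With limma voom the median was 0.33, under that of all genes at 0.45.

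Ndufc2 (ENSMUSG00000030647, chr7:97400003-97407802, plus strand, GRCm38) encodes an accessory subunit of the membrane arm of complex I. It was at 394, 513 and 765 CPM (lowest, median and highest) in KO MHCII-high mTEC, against 115, 155 and 222 CPM in KO cTEC. All 7 mTEC libraries were above all 7 cTEC libraries, which made a log2 difference of 1.70 (SE 0.23, 3.25-fold, edgeR adjusted p = 2.49e-05). In Control it was at 492.7, 428, 567 and 253 CPM in MHCII-high mTEC, against 80.5, 122, 167, 108 and 155 CPM in cTEC. Here too the groups did not overlap, which made a log2 difference of 1.78 (SE 0.28, 3.43-fold, edgeR adjusted p = 0.00101). These KO and Control comparisons share no library.

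In MHCII-low mTEC, Ndufc2 ranged over 184, 327 and 486 CPM in KO libraries, against 259, 396, 187 and 275 CPM in Control libraries. Its log2 fold changes over cTEC were 1.01 in KO (SE 0.23, edgeR adjusted p = 0.00881) and 1.14 in Control (SE 0.28, edgeR adjusted p = 0.0415), which share their cTEC libraries with the MHCII-high comparisons. Between the mTEC subsets it had 0.69 in KO (SE 0.22, unadjusted p = 0.00391, adjusted p = 0.163) and 0.64 in Control (SE 0.30, unadjusted p = 0.0379, adjusted p = 0.661) by edgeR's quasi-likelihood test, so the order of the mTEC subsets did not pass the threshold. The Ski flox Control libraries were at 351 and 566 CPM in MHCII-high mTEC, 264 and 278 CPM in MHCII-low mTEC and 167 and 224 CPM in cTEC. The lower MHCII-high value was below every KO library of that subset and the higher cTEC value above every KO library of cTEC.

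The call of Ndufc2 in KO MHCII-high mTEC held in 11 of 11 other settings and in 14 of 14 fits leaving out 1 library, with a largest adjusted p of 0.000159 among the fits that left out 1 library. In Control MHCII-high mTEC it held in 9 of 11 settings and 9 of 9 fits. In MHCII-low mTEC it held in 6 of 11 settings and 14 of 14 fits in KO, and in 5 of 11 settings and 3 of 9 fits in Control.

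**Figure D4:**
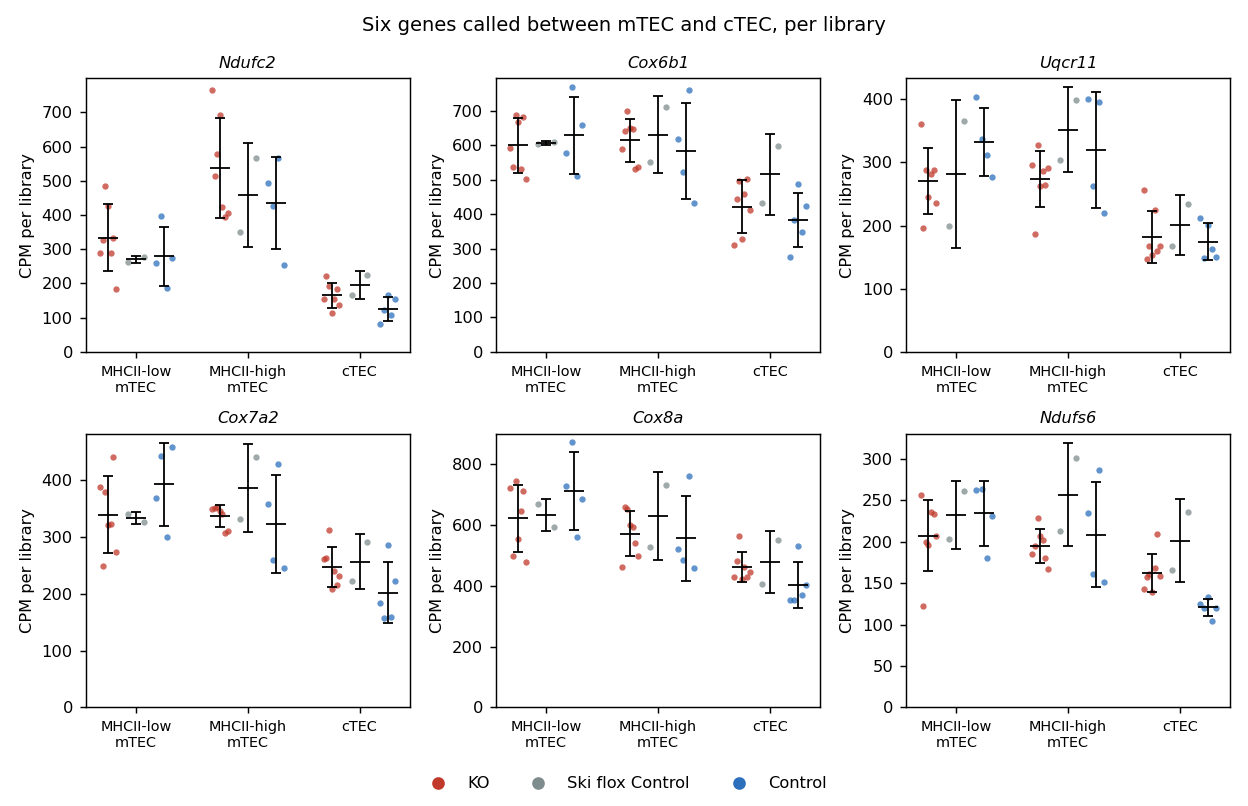
CPM per library (vertical axis) of 6 genes called between mTEC and cTEC, by subset and genotype; points are libraries, bars are mean and SD. Ndufc2 is at 394 to 765 CPM in KO MHCII-high mTEC, above every KO cTEC library (115 to 222 CPM), while Ndufs6 in Control cTEC lies in a narrow band of 105 to 134 CPM.

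Other transcripts moved with the subset. Genes detected per library numbered 13945 to 19108 in KO MHCII-low mTEC, 11989 to 20489 in KO MHCII-high mTEC and 11084 to 15625 in KO cTEC, and 16175 to 21447, 18134 to 20251 and 14168 to 17359 in the Control groups of the same subsets. Summed thymocyte markers (10 of 10 measured) averaged 1113 CPM in KO MHCII-low mTEC (74.4 to 3233), 503 CPM in KO MHCII-high mTEC (0 to 1090.0) and 1576 CPM in KO cTEC (191 to 3112). In Control they averaged 1053 CPM (83.1 to 2573), 431 CPM (42.0 to 759) and 2475 CPM (1331 to 4541), and no marker was at 0 throughout a group. Fibroblast markers (6 measured) averaged 200.3 CPM in KO MHCII-low mTEC (23.3 to 485), 102 CPM in KO MHCII-high mTEC (29.9 to 178) and 823 CPM in KO cTEC (11.95 to 5124). In Control they averaged 135 CPM (16.7 to 355), 72.1 CPM (30.2 to 116) and 772 CPM (0.413 to 2251), with Col3a1 at 0 in all Control MHCII-high libraries. Of 8 myeloid and dendritic markers, 6 were above 0 in KO MHCII-low mTEC over cTEC (median log2 fold change 1.46). In KO MHCII-high mTEC over cTEC 3 were (median −0.67). The shares of all genes above 0 were 58.1% and 57.6%. The part of these markers in the differences between subsets was not tested. In sorted bulk samples, fewer cells of a type and less RNA per cell cannot be told apart.

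Between MHCII-high and MHCII-low mTEC no respiratory chain gene was called by edgeR's quasi-likelihood test in KO or in Control, where 0.00868% and 0% of all genes were called higher. At an unadjusted p under 0.05, 4 were higher and 1 lower in KO (10.6% and 6.85% of all genes), and 1 was higher and none lower in Control (5.12% and 2.34%). DESeq2 and limma voom each called 2 in KO and none in Control. The medians were −0.03 in KO and −0.14 in Control, against 0.00 and 0.04 over all genes. In KO the smallest p belonged to Cox4i2, Ndufc2 and Cox7b2, and Sdha, the 1 gene lower, had −0.63 (SE 0.22, unadjusted p = 0.00715, edgeR adjusted p = 0.163). In Control they belonged to Ndufc2, Cox7b2 and Sdha, where Sdha had −0.56 (SE 0.29, edgeR adjusted p = 0.661).

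KO was set against Control within each subset, the study's comparison for Ski deletion. Ski RNA averaged 16.3 CPM in KO against 16.7 CPM in Control cTEC, and its difference did not pass the adjusted test in any subset. No respiratory chain gene was called in any subset by edgeR's quasi-likelihood test, where 0% of all genes were called higher or lower in each. In cTEC, 8 of 83 were higher at an unadjusted p under 0.05 (3.68% of all genes) and none lower (6.92%), 69 had a log2 fold change above 0 (39% of all genes), and the median was 0.20, against 0.00 over all genes. DESeq2 called 1 (Atp5k, log2 fold change 0.83, adjusted p = 0.0369) and limma voom none. Without cTEC KO replicate 3 the counts were 4 at an unadjusted p under 0.05 and 62 above 0, with a median of 0.16.

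Atp5k, subunit e of complex V, which takes part in pairing the enzyme, was at 103, 116 and 160.5 CPM in KO cTEC and at 62.2, 63.1, 83.9, 61.8 and 82.2 CPM in Control cTEC. All 7 KO libraries were above all 5 Control libraries, and the log2 fold change was 0.81 (SE 0.26, unadjusted p = 0.00322, adjusted p = 0.329, edgeR's quasi-likelihood test). Ndufs6 was the other gene without overlap, at 139.7, 159 and 209 CPM in KO cTEC against 105 to 134 CPM in Control cTEC. Its log2 fold change was 0.43 (SE 0.19, edgeR adjusted p = 0.392). These were 2 of 83 genes, where 0.026% of all genes had every KO library above every Control library. Cox6c had 0.45 (SE 0.18, unadjusted p = 0.0141, edgeR adjusted p = 0.346), and Cox7a1 3.55 (SE 1.54, edgeR adjusted p = 0.382), a value that holds cTEC KO replicate 3.

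In MHCII-low mTEC, 24 of 83 genes were above 0 (48% of all genes), with a median of −0.08 against 0.00 over all genes. None was higher and 2 were lower at an unadjusted p under 0.05 (2.53% and 4.58% of all genes), Cox4i2 and Cox7b2, which were at 0 in 6 and 7 of the 7 KO libraries. DESeq2 and limma voom called none. In MHCII-high mTEC, 45 of 83 were above 0 (46.2% of all genes), with a median of 0.01 against −0.04 over all genes, and 1 was higher (Cox7b2) and none lower at an unadjusted p under 0.05 (2.52% and 4.36% of all genes), with none called by DESeq2 or limma voom. Ndufc2 had log2 fold changes of 0.26 (95% interval −0.26 to 0.77) in MHCII-low mTEC, 0.31 (−0.21 to 0.83) in MHCII-high mTEC and 0.39 (−0.10 to 0.87) in cTEC. Each interval spans 0.

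**Figure D5:**
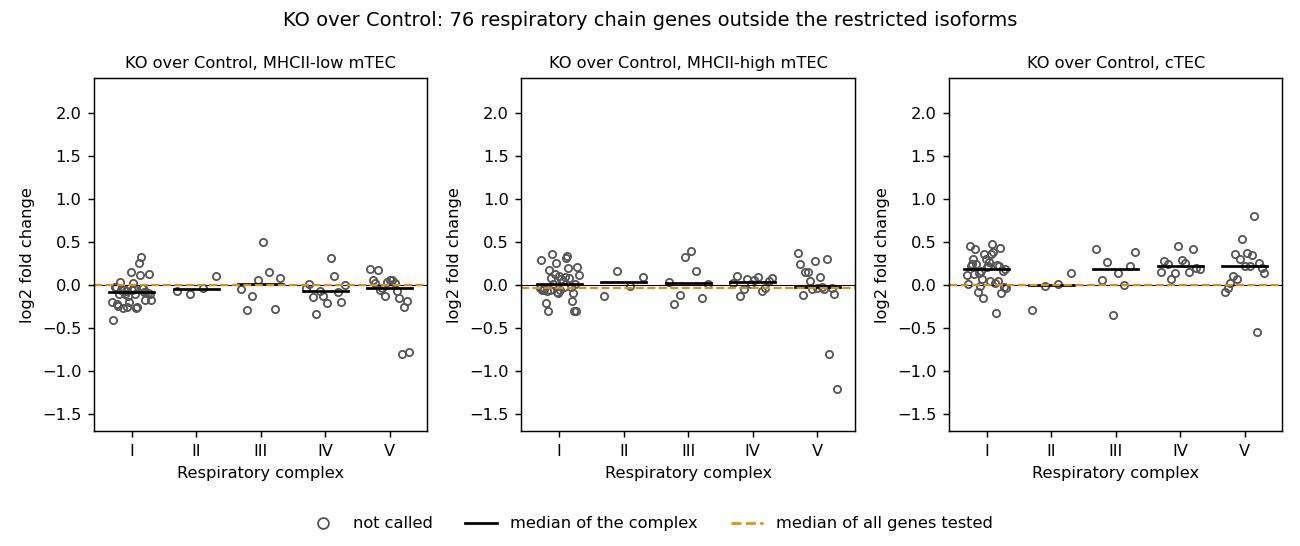
Log2 fold change of KO over Control (vertical axis) of the 76 genes outside the restricted forms, by complex, in MHCII-low mTEC, MHCII-high mTEC and cTEC; points are genes, black bars are medians of the points and the dashed line is the median of all genes. No point was called, and in cTEC most points lie above 0, with Atp5k highest among complex V at 0.81.

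The difference of the KO effect between subsets was tested directly. No respiratory chain gene was called by edgeR's quasi-likelihood test, DESeq2 or limma voom for MHCII-low mTEC minus cTEC, MHCII-high mTEC minus cTEC or MHCII-high minus MHCII-low mTEC. The medians of these differences were −0.27, −0.20 and 0.08, against 0.09, 0.01 and −0.09 over all genes. For MHCII-low mTEC minus cTEC, 14 of 83 were above 0 (53.1% of all genes), and none was higher and 6 were lower at an unadjusted p under 0.05 (4.3% and 3.09% of all genes), Atp5k among them with −0.96 (SE 0.37, unadjusted p = 0.0122, edgeR adjusted p = 0.481). For MHCII-high mTEC minus cTEC the counts were 2 higher and 1 lower, with Uqcrc1 at 0.67 (SE 0.29, unadjusted p = 0.0286, edgeR adjusted p = 0.577), where the shares of all genes were 4.21% and 3.05%. For MHCII-high minus MHCII-low mTEC they were 2 higher and none lower (3.24% and 2.93% of all genes). When cTEC KO replicate 3 was left out, 17 of 83 were above 0 and 5 lower at an unadjusted p under 0.05 for MHCII-low mTEC minus cTEC (median −0.23), and 23 were above 0, 2 higher and none lower for MHCII-high mTEC minus cTEC (median −0.16), with none called. These comparisons share libraries.

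The library numbers in the labels run without a gap. They were divided here into an early and a late set, a cut that no label marks. The Ski flox Control libraries are all in the late set, so that genotype and library set cannot be told apart where they are compared with libraries of both sets. With 2 libraries in each subset, they gave no call by edgeR's quasi-likelihood test against either other genotype, and 0% of all genes were called in each of these comparisons. Limma voom called none of the 83 either, and DESeq2 called Sdha in the 2 comparisons within MHCII-low mTEC. For KO over Ski flox Control the medians were −0.18 in MHCII-low mTEC, −0.21 in MHCII-high mTEC and −0.13 in cTEC, against 0.40, 0.01 and 0.00 over all genes. At an unadjusted p under 0.05, 4 genes were higher and none lower in MHCII-low mTEC (3.4% and 2.72% of all genes), none was higher and 1 lower in MHCII-high mTEC (0.417% and 2.73%), and none was higher or lower in cTEC (3.13% and 1.81%). In cTEC, 23 of 83 were above 0. Leaving out cTEC KO replicate 3 gave 16, with a median of −0.17. The gene lower in MHCII-high mTEC was Atp5o, a subunit of the peripheral stalk, with −0.47 (edgeR adjusted p = 1). For Ski flox Control over Control the medians were 0.03 in MHCII-low mTEC, 0.22 in MHCII-high mTEC and 0.32 in cTEC, against −0.37, −0.09 and −0.14 over all genes. Among late libraries alone, a setting chosen after seeing the data, they were 0.21, 0.24 and 0.38. At an unadjusted p under 0.05, none was higher and 2 were lower in MHCII-low mTEC (2.5% and 3.03% of all genes), and 1 was higher and none lower in MHCII-high mTEC (1.51% and 0.382%). In cTEC 8 genes were higher and none lower (1.42% and 3.31% of all genes), led by Ndufs6 (0.74, SE 0.26, edgeR adjusted p = 0.856), and in 16 both Ski flox Control libraries were above all 5 Control libraries (3.97% of all genes).

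Of the complex II genes, Sdha and Sdhc were low in both Ski flox Control libraries of MHCII-low mTEC, while Sdhb and Sdhd differed between the 2 libraries. Sdha was at 374, 538 and 917 CPM in KO MHCII-low mTEC, at 288 and 275.0 CPM in Ski flox Control and at 615, 368, 678 and 721 CPM in Control. Sdhc was at 110, 177 and 242 CPM in the KO libraries, at 90.8 and 97.9 CPM in Ski flox Control and at 177, 252, 184 and 113 CPM in Control. Both Ski flox Control libraries were below every KO and every Control library for both genes. Sdhb was at 319.6 and 477 CPM and Sdhd at 318 and 448 CPM in these libraries. Sdhb in replicate 1 was below, and Sdhd in replicate 2 above, every KO and Control library of the subset. For KO over Ski flox Control the log2 fold changes were 1.01 (SE 0.35, unadjusted p = 0.00679) for Sdha and 0.91 (SE 0.40, unadjusted p = 0.031) for Sdhc, both with an edgeR adjusted p of 0.686, and DESeq2 called Sdha (adjusted p = 0.0262). For Ski flox Control over Control they were −1.08 (SE 0.37) and −0.94 (SE 0.43), both with an edgeR adjusted p of 0.689, and DESeq2 called Sdha (adjusted p = 0.0363). These are the libraries with low epithelial markers, whose part in the result was not tested.

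Of the 13 subunits encoded by mitochondrial DNA, 4 were listed at 0 in all 40 libraries (mt-Co2, mt-Atp6, mt-Atp8 and mt-Nd4l), though every cell uses them, and mt-Co3 was close to 0. The 8 others were tested and not called in any comparison by edgeR's quasi-likelihood test. The sum over what was counted averaged 11129 ± 7287 CPM in KO, against 16271 ± 4785 CPM in Control MHCII-low mTEC (SD, n = 7 and 4), 7820 ± 3434 against 9638 ± 3833 CPM in MHCII-high mTEC (n = 7 and 4), and 11224 ± 6877 against 8254 ± 2360 CPM in cTEC (n = 7 and 5). The KO cTEC value holds replicate 2 at 26084 CPM, and averaged 8747 ± 2286 CPM without it and 10959 ± 7494 CPM without replicate 3 (n = 6 each). In MHCII-low mTEC over cTEC the median log2 fold change was −0.01 in KO (4 of 8 above 0) and 1.03 in Control (8 of 8, with 4 higher at an unadjusted p under 0.05). In MHCII-high mTEC over cTEC it was −0.56 in KO (none of 8, with 3 lower at an unadjusted p under 0.05) and 0.24 in Control (7 of 8). The medians of all genes tested in these 4 comparisons were 0.25, 0.14, 0.28 and 0.25. The KO medians were 0.03 in MHCII-low and −0.52 in MHCII-high mTEC without cTEC KO replicate 3.

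Assembly factors, which build the complexes without staying in them, were called for 2 of 41 tested in each mTEC subset over cTEC among KO libraries, where 5.19% (MHCII-low) and 12.9% (MHCII-high) of all genes were called higher. None was called among Control libraries. Acad9, a complex I assembly factor, had log2 fold changes of 1.56 in MHCII-low mTEC (edgeR adjusted p = 0.0369) and 2.64 in MHCII-high mTEC (edgeR adjusted p = 0.000635), and Ndufaf3, of the same complex, 0.86 (edgeR adjusted p = 0.0413) and 1.24 (edgeR adjusted p = 0.00303). The difference between KO and Control in these contrasts was not called for either gene (Acad9, 1.25 with SE 0.71 in MHCII-low and 1.39 with SE 0.71 in MHCII-high mTEC, edgeR adjusted p = 0.821 and 0.735). Both remained called without cTEC KO replicate 3 in MHCII-high mTEC (edgeR adjusted p = 0.00210 and 0.00810) and neither in MHCII-low mTEC (0.0717 and 0.0834). None of the 12 regulators of mitochondrial biogenesis was called in any comparison by edgeR.

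A few genes of neighbouring pathways were called between subsets. The shares of all genes called were 5.19% higher and 0.49% lower in KO MHCII-low, 12.9% and 1.82% in KO MHCII-high and 1.07% and 0.0434% in Control MHCII-high mTEC over cTEC. Among 9 carriers, Ucp2, a mitochondrial carrier, was lower in MHCII-high mTEC than in cTEC, with log2 fold changes of −1.44 in KO (edgeR adjusted p = 0.00546) and −1.60 in Control (edgeR adjusted p = 0.045). Slc25a4, the muscle form of the adenine nucleotide translocase, was lower in MHCII-low mTEC than in cTEC among KO libraries, at −1.12 on the log2 scale (edgeR adjusted p = 0.0272), a comparison that holds cTEC KO replicate 3 at 1730.3 CPM, and without it the value was −0.76 and not called (edgeR adjusted p = 0.0962). Of 16 glycolysis genes, Eno1 and Pfkp were higher in KO MHCII-low mTEC over cTEC and Eno1, Ldhb and Tpi1 in KO MHCII-high mTEC over cTEC, with Eno1 at 0.999 (edgeR adjusted p = 0.0266) and 1.05 (edgeR adjusted p = 0.0129). Of 13 TCA cycle genes only Suclg1 was called, higher by 0.69 in KO MHCII-high mTEC over cTEC (edgeR adjusted p = 0.0254). With cTEC KO replicate 3 left out, Ucp2 in KO, Eno1, Ldhb and Suclg1 remained called in MHCII-high mTEC, Tpi1 did not, and neither Eno1 nor Pfkp was called in MHCII-low mTEC (edgeR adjusted p = 0.0635 and 0.0598).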

How the data were processed

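RNA from 200 sorted cells per library was amplified with SMART-Seq v4 and made into Nextera XT libraries, per the labels' protocols, a kit pair that does not mark strand and adds no molecular identifiers. The authors deposited raw read counts per gene for each library. Per the submitters' processing notes, FastQC 0.11.3, SAMtools 1.2, Picard 1.134 and HTSeq 0.4.1 were used, with the build GRCm38. The aligner, the annotation and the strand setting: not given in the sources used here. Symbols were taken from GENCODE for GRCm38.

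Groups follow the labels. Of 42 libraries, 2 (MHCII-low and MHCII-high mTEC Control replicate 2, with 82 and 41828 counts) were left out for holding fewer than 100000 counts. The 40 others were fitted together in 9 groups with edgeR 4.0.16 (R 4.3.3), with TMM scaling, a low-count filter and the quasi-likelihood test. P-values were adjusted by Benjamini-Hochberg over all 23040 genes tested and called at 0.05. CPM are TMM-scaled, levels between genes are per kilobase of transcript, and 95% intervals use 1.96 SE. Intervals and count limits cover counting error only where they come from counts. The fit was checked on simulated counts.

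The respiratory chain genes, the other lists and the tests were chosen with earlier results of these data known. Genes named are the isoform families and Sdh genes, up to 6 called per direction in each comparison (or the 3 of smallest p where fewer than 3 were called), the most and least abundant of each complex, up to 2 called per other list, and up to 4 without overlap in KO comparisons. Others were named after their values were seen. Alternatives were DESeq2 1.42.0, limma voom (limma 3.58.1), RLE scaling, other filters, all libraries, the compared groups alone, covariates for detected genes and for early or late library numbers, each library left out, and, chosen after seeing the data, the early or late libraries alone and all lists without cTEC KO replicate 3. Figures were drawn with matplotlib 3.10.9.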

Additional observations from a re-analysis of the deposited data

Results flagged for a closer look

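Of 126 groups tested, 12 held a library far from the others of its group, where chance flags about 1 in 20 groups. Of these, 4 concern the library of cTEC KO replicate 3, which held heart muscle transcripts. It was the highest of its group for the sum of all respiratory chain genes (23669 CPM), the sum of complex II (1660 CPM), the sum of complex V (8797 CPM) and Cox8a (564 CPM). The sum of complex V was also far above its group in MHCII-low mTEC Control replicate 3, at 9449 CPM.

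The sum of the subunits encoded by mitochondrial DNA was far above the rest of its group in MHCII-low mTEC KO replicate 1, at 26804 CPM, and in cTEC KO replicate 2, at 26084 CPM. Cox8a was far above in cTEC Control replicate 3, at 531 CPM, and Ndufs6 in cTEC KO replicate 6, at 209 CPM. Cox7b2 was high in 1 library of each of 3 groups that were otherwise at or near 0, at 61.0 CPM in MHCII-high mTEC KO replicate 1, 6.51 CPM in MHCII-low mTEC Control replicate 5 and 0.231 CPM in cTEC Control replicate 4.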

How the results depend on the processing

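The number of respiratory chain genes called between mTEC and cTEC depended on the tool and the libraries. The shares of all genes called under each alternative are not given here, so these counts cannot be set against other genes. Of 7524 values of single genes under alternatives, 178 lost and 64 gained a call, and 527 had the other sign than the reported value. Of those 527, 1 belonged to a called gene (Atp5f1 in MHCII-high mTEC over cTEC in KO, −0.043 in the late libraries alone, a setting chosen after seeing the data). Counts are given for MHCII-low mTEC over cTEC in Control (8), MHCII-high mTEC over cTEC in Control (1), MHCII-low mTEC over cTEC in KO (3) and MHCII-high mTEC over cTEC in KO (7), in that order where 4 are given. DESeq2 called 35, 19, 8 and 19, and the early libraries alone gave 0, 0, 0 and 1 and the late ones 1, 0, 0 and 1 (both chosen after seeing the data). Limma voom called 20 and 6 in the Control comparisons and 15 in MHCII-high mTEC over cTEC in KO, and the 10 CPM filter gave 18 and 4 in Control and 5 in MHCII-low KO. RLE scaling gave 13 in MHCII-low Control and 16 in MHCII-high KO. No filter gave 0 in MHCII-low Control, 1 in MHCII-low KO and 4 in MHCII-high KO, all 42 libraries gave 0, 0 and 2 there, and the compared groups alone, which also changes the genes tested, 0, 0 and 1. The covariate for detected genes gave 7 in MHCII-high Control, 5 in MHCII-low KO and 12 in MHCII-high KO, and that for early or late libraries 5 in MHCII-high Control. Leaving out 1 library gave 0 to 10, 1 to 5, 1 to 6 and 3 to 11.

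In comparisons without a call, DESeq2 called 2 in MHCII-high over MHCII-low mTEC in KO (as did limma voom), 1 in KO over Control in cTEC, 1 in KO over Ski flox Control in MHCII-low mTEC and 1 in Ski flox Control over Control in MHCII-low mTEC, where the late libraries alone also gave 1. The median of KO over Control in MHCII-low mTEC changed sign with all 42 libraries (0.22, with 73 of 83 above 0), as did that of MHCII-high over MHCII-low mTEC in Control (0.24, with 65 of 83). Without TMM scaling the sum in MHCII-low mTEC Ski flox Control was 22732 CPM. The cause of these changes was not tested. No paired analysis was possible because the labels give no replicate numbers that tie libraries across groups. The depth of single genes rests on 200 cells and on 2 to 7 libraries a group.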
